A study of Mus musculus with 12 samples.

Results

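Inguinal fat pads of 12 mice were compared by their level of *Cd79a*, a signalling chain of the B cell receptor and here a sign of lymph node tissue in the pad. An array was called *Cd79a*-high where the log2 value of *Cd79a* was 8 or higher and *Cd79a*-low where it was below 8, whatever the genotype of the mouse. Of the 12 arrays, 9 were *Cd79a*-high (4 R6/2 and 5 WT mice) and 3 were *Cd79a*-low (R6/2 mice 3 and 4 and WT mouse 4). R6/2 mice carry a transgene of exon 1 from human huntingtin, whose CAG repeat is expanded, under that gene's own promoter, and WT mice were their littermates. All were males of 12 weeks, each pad came from 1 mouse, and each mouse had 1 Affymetrix Mouse Gene 2.0 ST array. The study chose the mice by genotype, and the sources used here do not state whether the lymph node was left in a pad or cut out. The groups were chosen by the measured value of *Cd79a*, so differences between the *Cd79a*-high and *Cd79a*-low arrays are given as descriptions without a p-value.

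The mouse inguinal pad surrounds a lymph node, a capsule of densely packed lymphocytes. B cells gather there in follicles around follicular dendritic cells, which draw them in with the chemokine CXCL13. T cells fill the zone between the follicles, and lymphocytes enter from the blood through high endothelial venules, whose lining cells secrete the mucin GLYCAM1. The fat around the node holds adipocytes, their progenitors, matrix-forming fibroblasts and vessels. In whole-pad RNA, fewer cells of a type and less RNA per cell cannot be told apart.

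*Cd79a* left a wide gap between the groups. It lay between 10.14 and 11.98 in the 9 *Cd79a*-high arrays, with a median of 11.26, and at 5.94, 6.24 and 6.30 in the *Cd79a*-low arrays. The array just above the limit of 8 was WT 1 at 10.14 and the array just below it was R6/2 4 at 6.30. *Ms4a1*, the B cell antigen CD20, lay between 8.88 and 10.77 (median 10.18) in the *Cd79a*-high arrays and at 4.24, 4.94 and 5.33 in the *Cd79a*-low arrays. *Cd3e*, a chain of the T cell receptor complex, lay between 7.91 and 11.05 (median 10.47) in the *Cd79a*-high arrays, against 5.07, 5.99 and 6.06 in the *Cd79a*-low arrays. *Glycam1* lay between 9.07 and 12.32 (median 10.26) in the *Cd79a*-high arrays, against 5.36, 5.47 and 6.13 in the *Cd79a*-low arrays. The lack of overlap in *Cd79a* was set by the split. The groups did not overlap in the other 3 markers either, which stand for B cells, T cells and venules. *Ms4a1* had a *Cd79a*-low mean of 4.84, under the level limit for keeping a probe set (5.44 in R6/2 and 5.45 in WT mice). *Ms4a1* passed that limit mainly through the *Cd79a*-high arrays, and its difference starts from a low value. With genotype held constant, the difference was 5.03 for *Cd79a* (32.8 times), 5.29 for *Ms4a1* (39.0 times), 4.52 for *Cd3e* (22.9 times) and 5.55 for *Glycam1* (47.0 times).

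**Figure D1:**
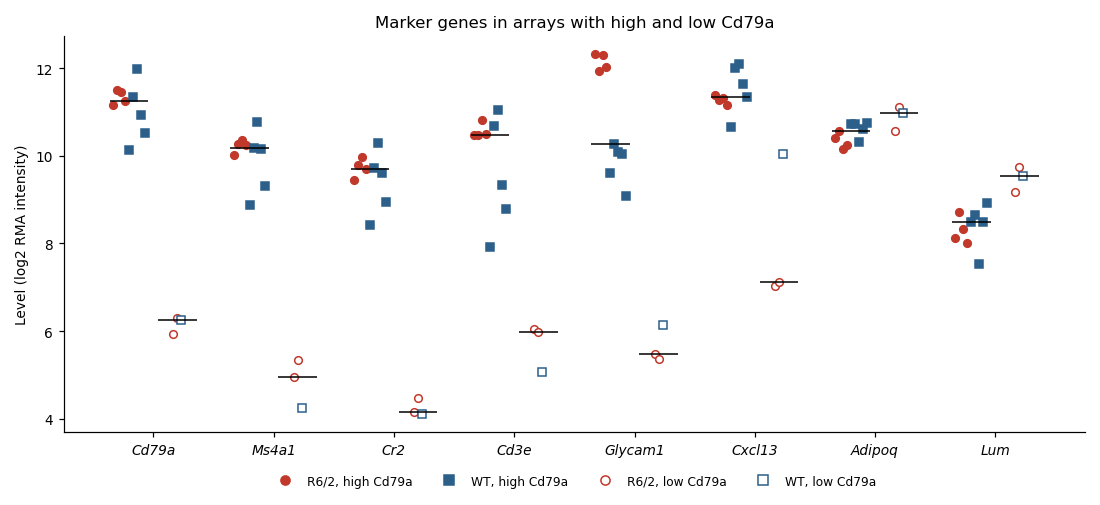
Level of 8 genes on the log2 scale of the RMA values (vertical axis) in each array, with the 9 *Cd79a*-high arrays as filled symbols to the left and the 3 *Cd79a*-low arrays as open symbols to the right for each gene. Circles are R6/2 and squares WT mice, and the horizontal lines are medians; *Cxcl13* in WT 4 stands at 10.05 while the other *Cd79a*-low arrays stand at 7.02 and 7.11.

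The 3 *Cd79a*-low arrays were not alike in every node gene. *Cxcl13*, the follicular chemokine, lay between 10.65 and 12.09 (median 11.34) in the *Cd79a*-high arrays, against 7.02 in R6/2 3, 7.11 in R6/2 4 and 10.05 in WT 4. WT 4 was thus closer to the lowest *Cd79a*-high array than to the other *Cd79a*-low arrays in this gene. *Adipoq*, the adipocyte hormone adiponectin, lay between 10.15 and 10.74 (median 10.57) in the *Cd79a*-high arrays and at 10.57, 10.97 and 11.12 in the *Cd79a*-low arrays, so all 12 arrays held adipocyte RNA. Skeletal muscle RNA also differed between arrays. The mean of 20 muscle genes ranged from 5.84 to 9.78 in the *Cd79a*-high arrays (median 7.13) and lay at 6.07, 7.59 and 10.23 in the *Cd79a*-low arrays. The groups overlapped in it, and the median difference of its genes was -0.27, running from -1.38 to 0.67 over the arrays left out.

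Genotype was spread over both groups. The *Cd79a*-low arrays were 2 of 6 R6/2 and 1 of 6 WT mice (Fisher's exact test, two-sided, p = 1). With so few *Cd79a*-low arrays, no split by genotype could bring this test below 0.05. The test therefore cannot decide whether genotype and group were linked. Among the *Cd79a*-high arrays *Cd79a* averaged 11.34 ± 0.15 in R6/2 (SD, n = 4) and 10.98 ± 0.72 in WT mice (SD, n = 5), a difference of 0.36, given without a test because *Cd79a* chose these arrays. The R6/2 mice lay within the range of the WT mice.

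Across the transcriptome the difference was lopsided. Of 14550 genes measured, 632 (4.34%) were at least 2 times higher in the *Cd79a*-high arrays and 42 (0.289%) were at least 2 times lower. At least 4 times higher were 224 genes (1.54%) and at least 8 times higher were 75 (0.515%), while no gene was 4 times lower. The largest lower difference was -1.71 and the largest higher difference 5.55. Every *Cd79a*-high array was above every *Cd79a*-low array in 1064 genes (7.31%) and below every one in 789 (5.42%). Among the genes at least 2 times higher 528 (3.63% of all) had every *Cd79a*-high array above every *Cd79a*-low array, and among those at least 2 times lower 10 (0.0687% of all) had every *Cd79a*-high array below them. Counted by sign alone the balance was the other way round, with 5930 genes higher (40.8%) and 8620 lower (59.2%), and the median over all genes was -0.07. Many genes were thus slightly lower and fewer much higher. In 486 genes the mean of the *Cd79a*-low arrays was under the level limit of the filter, so that they passed it mainly through the *Cd79a*-high arrays. Of the 632 higher genes 157 were of this kind, and 475 of the other 14064 genes were at least 2 times higher. The count of lower genes moved with the *Cd79a*-low arrays used, being 124 without R6/2 3 and 152 without WT 4, and with the genotype term, being 22 without it. The 3 *Cd79a*-low arrays limit the precision of every difference given here.

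*Glycam1* led the 20 genes with the largest differences among those without overlap, and most of the others were lymphocyte genes. They included the B cell genes *Cr2* (the complement receptor CD21, 5.36), *Fcer2a* (the IgE receptor CD23, 4.55), *Fcmr* (the IgM receptor, 4.24), *Cd22* (an inhibitory receptor, 4.09), *Bank1* (a scaffold of B cell receptor signalling, 4.04) and the transcription factor *Spib* (3.91). *Cr2* lay between 8.42 and 10.30 (median 9.69) in the *Cd79a*-high arrays and at 4.11, 4.16 and 4.47 in the *Cd79a*-low arrays. *Cd3g*, another chain of the T cell receptor complex, had a difference of 4.90, and *Il7r*, the interleukin-7 receptor chain, one of 3.91. *Btla*, an inhibitory receptor of B and T cells, stood at 4.42, *Slamf6*, a SLAM family receptor of lymphocytes, at 4.34 and the Ikaros family factor *Ikzf3* (Aiolos) at 4.30. The others included *H2-DMb2* (4.34), which loads peptides on MHC class II, the class I-like gene *H2-M2* (3.93), the pseudogene *Gm4759* (4.43) and the long noncoding RNA *BE692007* (4.84). Immunoglobulin segments and *H2-DMb2* have near-identical copies, and how the array's probes divide between copies is uncertain. The *Cd79a*-low means of *Cr2*, *Cd3g*, *Spib*, *Ikzf3*, *Btla*, *Slamf6*, *H2-DMb2*, *Gm4759* and *BE692007* lay between 4.11 and 5.29, under the level limit. These genes passed the filter mainly through the *Cd79a*-high arrays, and their differences start from low values. The means of *Glycam1*, *Fcmr*, *Cd22*, *Bank1* and *Il7r* were over the limit. The difference of *Slamf6* was 2.71 without a filter on low probe sets.

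Promoters of the higher genes held the letters read by ETS factors, the family of ETS1 and SPIB, more often than other promoters did. The letters AGGAAGT were searched on both strands of RefSeq promoters from 250 bases before to 50 bases after the start (GRCm38.p6). A gene counted once where any of its promoters held the letters, so genes with more promoters had more chances of a match. The letters were found for 131 of 454 protein-coding genes at least 2 times higher (28.9%). They were found in 66 of 397 (16.6%) of genes 1.5 to 2 times higher, in 894 of 9388 (9.52%) of genes that differed by less than 1.5 times, in 1149 of 10750 (10.7%) of all genes tested and in 1821 of 17491 (10.4%) of all protein-coding genes. The longer form GAGGAAGT, which contains the first motif, was found for 12.1% of genes at least 2 times higher and for 3.73% of all genes tested. For ATTTGCAT, the octamer read by POU factors of B cells, the shares were 3.3% and 1.58%, with 3.78% for genes 1.5 to 2 times higher. For a 10-base NF-κB motif they were 0.661% (3 genes) and 0.214%. Of the protein-coding genes at least 2 times higher 80.5% had a promoter in the table, counted on the chromosomes it covers. A match is only a description of the letters, and occupancy was not measured here. The promoters below belong to genes of the B cell and T cell lists and to *Btla*, chosen after their letters were seen, with the motif or its reverse complement ACTTCCT in capitals.
Cd79a, chr7:24897247-24897546, plus strand: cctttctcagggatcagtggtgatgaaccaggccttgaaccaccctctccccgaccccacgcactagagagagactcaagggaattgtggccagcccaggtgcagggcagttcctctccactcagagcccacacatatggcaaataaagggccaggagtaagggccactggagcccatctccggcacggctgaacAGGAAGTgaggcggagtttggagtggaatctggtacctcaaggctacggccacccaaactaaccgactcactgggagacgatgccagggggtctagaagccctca
Fcrl1, chr3:87376137-87376436, plus strand: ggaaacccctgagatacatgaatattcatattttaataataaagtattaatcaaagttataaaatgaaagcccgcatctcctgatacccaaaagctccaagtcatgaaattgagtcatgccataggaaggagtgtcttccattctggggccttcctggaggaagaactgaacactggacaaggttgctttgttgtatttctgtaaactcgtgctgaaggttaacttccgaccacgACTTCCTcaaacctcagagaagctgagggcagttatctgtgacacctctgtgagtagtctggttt
Cd37, chr7:45238790-45239089, minus strand: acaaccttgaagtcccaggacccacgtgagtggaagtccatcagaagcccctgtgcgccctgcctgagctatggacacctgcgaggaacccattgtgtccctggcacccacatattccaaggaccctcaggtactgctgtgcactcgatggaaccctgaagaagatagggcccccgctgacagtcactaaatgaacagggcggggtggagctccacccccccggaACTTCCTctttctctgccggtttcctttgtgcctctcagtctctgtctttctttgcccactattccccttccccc
Btla, chr16:45224087-45224386, plus strand: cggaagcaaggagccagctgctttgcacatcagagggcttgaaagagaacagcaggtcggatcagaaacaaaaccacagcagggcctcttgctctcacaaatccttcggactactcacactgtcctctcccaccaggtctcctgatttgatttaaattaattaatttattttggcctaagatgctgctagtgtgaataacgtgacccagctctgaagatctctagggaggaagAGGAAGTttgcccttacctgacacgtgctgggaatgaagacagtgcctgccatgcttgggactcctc
Cd3e, chr9:45009562-45009861, minus strand: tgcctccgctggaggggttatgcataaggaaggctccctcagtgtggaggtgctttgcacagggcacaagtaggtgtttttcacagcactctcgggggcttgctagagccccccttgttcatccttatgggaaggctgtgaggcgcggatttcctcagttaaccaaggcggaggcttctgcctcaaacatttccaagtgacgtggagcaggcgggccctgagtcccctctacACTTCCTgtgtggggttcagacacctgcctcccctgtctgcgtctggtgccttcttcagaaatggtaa
Cd5, chr19:10738925-10739224, minus strand: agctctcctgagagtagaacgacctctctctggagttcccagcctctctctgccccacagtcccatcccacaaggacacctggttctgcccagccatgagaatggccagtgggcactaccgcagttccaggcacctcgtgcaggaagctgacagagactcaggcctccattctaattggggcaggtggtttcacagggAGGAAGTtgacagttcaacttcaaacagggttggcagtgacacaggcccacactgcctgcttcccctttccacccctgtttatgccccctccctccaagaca

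In all 6 promoters the first match lay close before the start, from 55 bases before it in *Cd79a* to 15 bases before it in *Fcrl1*, a receptor of the Fc receptor-like family on B cells. Positions in other promoters were not counted, so this closeness describes the 6 chosen promoters only. *Glycam1*, the gene with the largest difference, had no such letters in its promoter. For the marker *Ms4a1* there was no promoter sequence to search.

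Differences between the *Cd79a*-high and *Cd79a*-low arrays share the values that made the split, so the order of the 9 *Cd79a*-high arrays was used as well. That order played no part in the split. A slope of each gene on *Cd79a* was fitted in these 9 arrays with genotype held constant (limma, Benjamini-Hochberg adjustment over 14549 genes, threshold 0.05). On this scale a slope of 1 means that a gene changed by the same factor as *Cd79a*. With genotype held, only the spread of *Cd79a* within each genotype informs a slope. That spread was small in R6/2 mice (SD 0.15, n = 4) beside WT mice (SD 0.72, n = 5). The slopes therefore rest mainly on the 5 WT mice. With rising *Cd79a* 2272 genes (15.6%) rose and 1740 (12%) fell. Of the 631 genes other than *Cd79a* that were at least 2 times higher across the gap, 603 (95.6%) also rose within the 9 arrays, and 629 had a slope above 0. Of the 42 genes at least 2 times lower, 3 fell. WT 3, with the highest *Cd79a*, carried much of the test. Without it 550 genes rose, 152 fell, and 415 of the 631 genes rose. Without WT 1, with the lowest *Cd79a*, 1773 genes rose, 925 fell, and 551 of the 631 genes rose.

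**Figure D2:**
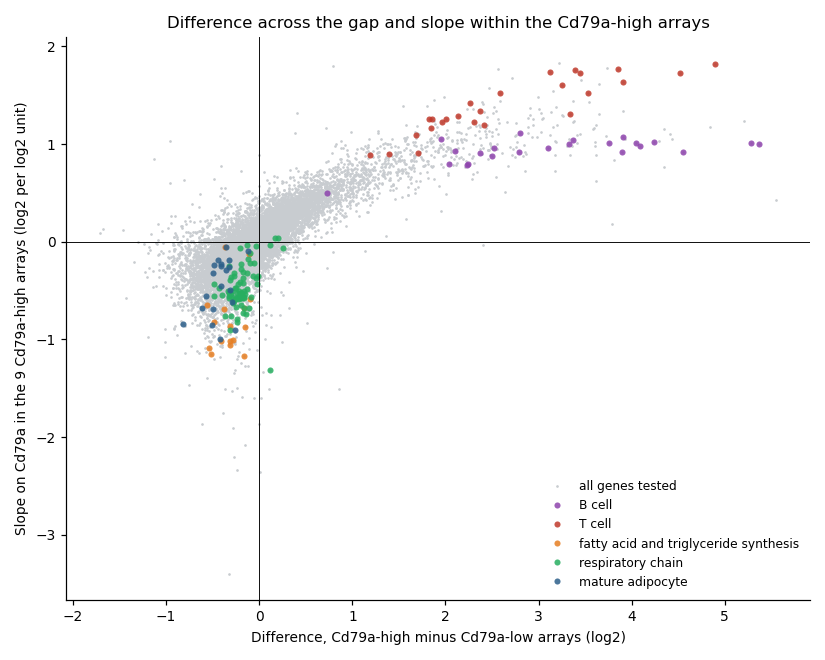
Each gene's slope on *Cd79a* in the 9 *Cd79a*-high arrays (vertical axis, log2 units per log2 unit of *Cd79a*, genotype held) against its difference between *Cd79a*-high and *Cd79a*-low arrays (horizontal axis, log2). Grey dots are all genes and coloured dots are 5 gene lists; T cell genes lie above B cell genes at like differences, with median slopes of 1.31 and 0.96, and genes of fatty acid synthesis have slopes with a median of -0.87 beside a median difference of -0.31.

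B cell genes followed *Cd79a* nearly in proportion. Of 24 measured genes of the B cell list (26 listed), 23 were at least 2 times higher, with a median difference of 3.22, and 22 of the 23 other than *Cd79a* rose within the *Cd79a*-high arrays, with a median slope of 0.96. The slope was 1.01 (SE 0.11, adjusted p = 0.000197) for *Ms4a1*, 1.00 (SE 0.097, adjusted p = 0.000132) for *Cr2* and 1.07 (SE 0.080, adjusted p = 5.35e-05) for *Spib*. *Cd37*, a tetraspanin of B cells, had the steepest slope of the list at 1.11 (SE 0.073, adjusted p = 5.2e-05) and lay between 9.29 and 11.28 (median 10.53) in the *Cd79a*-high arrays, against 7.06, 7.81 and 8.13 in the *Cd79a*-low arrays. *Pax5*, the factor that commits cells to the B lineage, differed by 3.11 and had a slope of 0.96. *Ly6d* had a slope of 0.80 (SE 0.38, adjusted p = 0.154). *Vpreb3* was the only measured gene of the list under 2 times, with a difference of 0.73 and overlapping groups. Immunoglobulin genes ran alongside. All 13 measured were at least 2 times higher (median 3.18), of which 9 had a *Cd79a*-low mean under the level limit, and the other 4 had a median of 2.10. Within the *Cd79a*-high arrays 12 rose, with a median slope of 1.02. *Ighm*, the heavy chain of IgM, lay between 7.83 and 9.59 (median 9.13) in the *Cd79a*-high arrays and at 5.08, 5.19 and 5.59 in the *Cd79a*-low arrays. *Ighg3* had a slope of 0.75 (SE 0.33, adjusted p = 0.127). Without WT 3 the count of rising genes was 22 of 23 in the B cell list and 6 of 13 among immunoglobulin genes.

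T cell genes mostly had slopes above 1. All 25 measured genes of the T cell list (29 listed) were at least 2 times higher (median 2.37), all 25 rose within the *Cd79a*-high arrays, and 22 of them had a slope above 1, against 9 of 23 in the B cell list; the difference between the lists was not tested. The slope was 1.82 (SE 0.16, adjusted p = 7.68e-05) for *Cd3g*, 1.77 (SE 0.18, adjusted p = 0.000144) for the costimulator *Cd27*, 1.73 (SE 0.17, adjusted p = 0.000145) for *Cd3e* and 1.73 (SE 0.11, adjusted p = 5.2e-05) for the coreceptor *Cd4*. *Cd8a*, the coreceptor of cytotoxic T cells, lay between 6.37 and 9.53 (median 9.12) in the *Cd79a*-high arrays and at 5.09, 5.28 and 5.36 in the *Cd79a*-low arrays. *Foxp3*, the factor of regulatory T cells, lay between 6.61 and 9.05 (median 8.26) in the *Cd79a*-high arrays and at 6.08, 6.18 and 6.51 in the *Cd79a*-low arrays, with a difference of 1.96. The list mean ran from 6.29 to 8.82 in the *Cd79a*-high arrays, against 5.30 to 5.51 in the *Cd79a*-low arrays, and WT 1 was its lowest *Cd79a*-high array. T cell receptor segments gave 5 of 5 rising genes, with a median slope of 1.48. Without WT 3 the counts were 23 of 25 and 5 of 5. In the *Cd79a*-low arrays 12 of the 25 T cell genes, 3 of the 5 receptor segments and 6 of the 24 B cell genes had a mean under the level limit, and such genes had to be higher in the *Cd79a*-high arrays to pass the filter. Without them 13 of 13 T cell genes (median 2.37) and 18 of 18 B cell genes (median 2.95) were at least 2 times higher. The same held for 4 of 13 homing genes, 3 of 19 lymphoid transcription factors, 3 of 14 dendritic cell genes and 2 of 10 MHC class II genes described next, and without them 7 of 9, 12 of 16, 6 of 11 and 8 of 8 were at least 2 times higher.

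**Figure D3:**
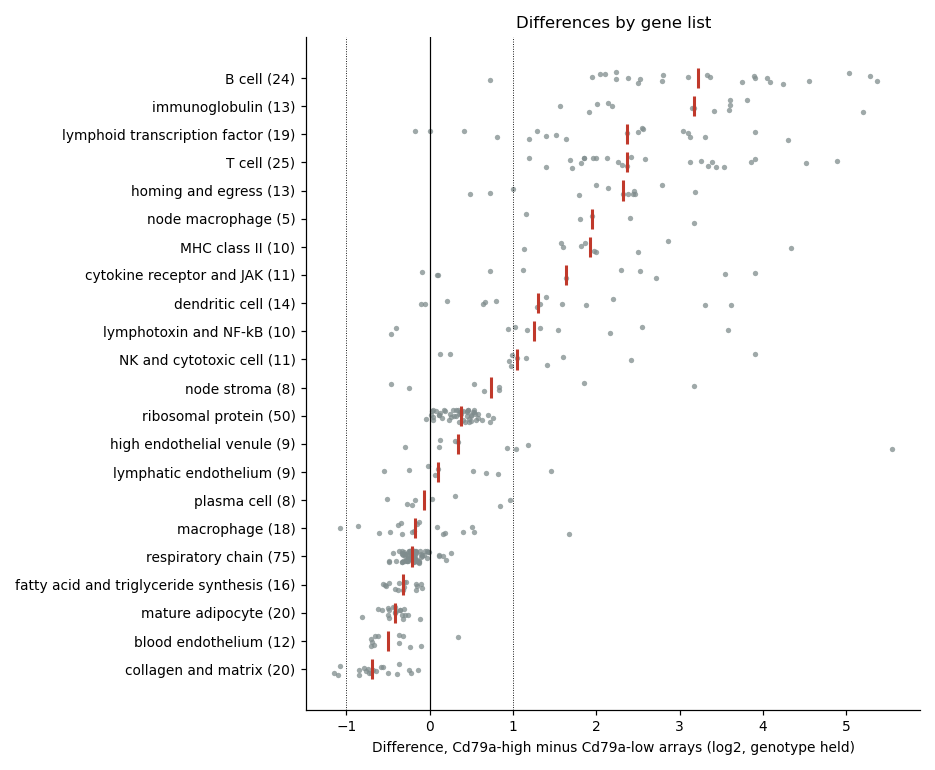
Difference between *Cd79a*-high and *Cd79a*-low arrays (horizontal axis, log2, genotype held) for the members of 22 of the gene lists, 1 list per line with the number of measured genes in brackets. Grey dots are genes, red bars are list medians and dotted lines mark 2 times in either direction; medians run from -0.69 for collagen and matrix genes to 3.22 for B cell genes.

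Signals that place and keep lymphocytes in a node were higher with them. Of 13 genes of homing and egress, 11 were at least 2 times higher (median 2.32) and 13 rose. *Ccr7*, which guides T cells and dendritic cells into the T cell zone, differed by 3.19 and had a slope of 1.38 (SE 0.10, adjusted p = 5.35e-05). *Cxcr5*, the receptor for CXCL13, differed by 2.79 with a slope of 0.92, and *Itgb7*, an integrin chain, by 2.32 with a slope of 1.18. *S1pr1*, the receptor by which lymphocytes leave a node and which endothelium also carries, differed by 0.48, and its arrays overlapped. Among 10 genes of lymphotoxin and NF-κB signalling 7 were at least 2 times higher and 7 rose. *Ltb*, the lymphotoxin chain on lymphocytes, lay between 8.51 and 10.56 (median 9.86) in the *Cd79a*-high arrays and at 6.10, 6.16 and 6.53 in the *Cd79a*-low arrays, and rose with a slope of 1.16 (SE 0.10, adjusted p = 9.18e-05). Its receptor *Ltbr*, found on stroma, differed by -0.46 and fell with a slope of -0.30 (SE 0.10, adjusted p = 0.0479) but was past the threshold by little, and leaving out any of 7 of the 9 arrays gave an adjusted p between 0.0533 and 0.268. Among 11 cytokine receptor and JAK genes 7 were at least 2 times higher and 8 rose, such as *Stat4* (3.54), *Il21r* (2.71) and *Il2rb* (2.29). Of the 10 with a *Cd79a*-low mean over the level limit 6 were at least 2 times higher. Among 19 lymphoid transcription factors 15 were at least 2 times higher and 18 rose, led by *Ikzf3*, *Spib*, *Bcl11a* (3.30) and *Lef1* (3.12). Without WT 3 the rising genes were 10 of 13 for homing, 4 of 10 for lymphotoxin, 7 of 11 for cytokine receptors and 15 of 19 for transcription factors.

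Stromal and vascular genes of the node were more mixed. Of 8 node stroma genes 2 were at least 2 times higher, *Cxcl13* (3.17) and *Bst1* (1.86), an ectoenzyme of reticular stroma. *Bst1* had a *Cd79a*-low mean under the level limit, and of the 6 stroma genes over it 1 was at least 2 times higher. *Cxcl13* rose with a slope of 0.73 (SE 0.13, adjusted p = 0.00308). *Pdpn*, carried by reticular and lymphatic cells, differed by -0.25. In the list of the high endothelial venule 3 of 9 genes were at least 2 times higher, namely *Glycam1*, *Chst4* (1.19), a sulfotransferase of L-selectin ligands, and *Gcnt1* (1.03). *Chst4* and *Gcnt1* were under the level limit in the *Cd79a*-low arrays, and of the other 7 genes 1 was at least 2 times higher. *Madcam1* (0.34), *Fut7* (0.12) and *Ackr1* (-0.30) overlapped between the groups. In the lymphatic endothelium list 1 of 9 genes was at least 2 times higher. This was *Stab2* (1.46), a scavenger receptor of sinus endothelium, which lay between 5.99 and 7.12 (median 6.60) in the *Cd79a*-high arrays and at 4.98, 5.13 and 5.32 in the *Cd79a*-low arrays, under the level limit there. *Prox1*, the factor of lymphatic identity, differed by 0.82, *Lyve1* by 0.52 and *Flt4* by -0.02. Within the *Cd79a*-high arrays 4 of 8 stroma genes, 4 of 9 venule genes and 1 of 9 lymphatic genes rose, where 15.6% of all genes did, and the lymphatic count is no more than that share gives. Without WT 3 these counts were 1, 0 and 0, and without WT 1 they were 3, 2 and 0.

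*Glycam1* was the exception among the leading genes. Its slope on *Cd79a* was 0.43 (SE 0.18, adjusted p = 0.116). It stood at 12.32, 11.94, 12.29 and 12.02 in the R6/2 arrays 1, 2, 5 and 6, against 9.60, 10.26, 10.08, 10.03 and 9.07 in the WT arrays 1, 2, 3, 5 and 6. The genotypes did not overlap among the *Cd79a*-high arrays. In the *Cd79a*-low arrays the order was the other way round, with 5.47 and 5.36 in R6/2 3 and 4 and 6.13 in WT 4. Among the *Cd79a*-high arrays the term for R6/2 minus WT was 2.18 with *Cd79a* held constant (limma, adjusted p = 0.00988), a comparison made after these values were seen. In the same fit 25 genes (0.172%) were higher and 21 (0.144%) lower in R6/2 mice. The adjusted p was 0.0735 without R6/2 1 and 0.0836 without R6/2 5, with the term between 2.00 and 2.28 over the arrays left out. *Glycam1* is also made in lactating mammary epithelium, and which cells made it here was not tested. The epithelial list held 3 measured genes of 10 listed, *Krt8* (-0.12), *Cdh1* (-0.13) and *Krt10* (-0.19). These differences are between *Cd79a*-high and *Cd79a*-low arrays, which overlapped in them, and not between genotypes.

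Macrophage genes of the node were higher, and those of the general list were mixed. All 5 measured node macrophage genes were at least 2 times higher. Of these 1 had a *Cd79a*-low mean under the level limit, and without it 4 of 4 were. *Timd4*, a receptor for dying cells on node macrophages, lay between 8.21 and 9.67 (median 8.87) in the *Cd79a*-high arrays and at 5.64, 5.99 and 6.02 in the *Cd79a*-low arrays. *Marco*, a scavenger receptor of medullary macrophages, differed by 2.41 and had a slope of -0.03 (SE 0.23, adjusted p = 0.935), and *Cd209b* differed by 1.95 with a slope of 0.32 (SE 0.23, adjusted p = 0.338). The general macrophage list had a median of -0.17, which was 0.10 without WT 4, with *Lyz2*, lysozyme, at 1.67 and *Cd163*, a receptor of resident tissue macrophages, at -1.08. *Adgre1* (-0.61), *Cd68* (0.16) and *Csf1r* (0.40) overlapped between the groups. Of 14 dendritic cell genes 8 were at least 2 times higher and 9 rose. *Ccl22*, a chemokine of mature dendritic cells, differed by 3.61, *Ly75* by 2.20 and *Flt3* by 1.87, while *Cd209a* differed by -0.06 and *Zbtb46* by -0.11. All 10 measured genes of MHC class II presentation were at least 2 times higher (median 1.92) and 9 rose. *H2-Ab1*, a class II chain, lay between 10.21 and 11.83 (median 11.36) in the *Cd79a*-high arrays and at 9.12, 9.39 and 10.36 in the *Cd79a*-low arrays, which overlap. Without WT 3 the rising genes were 1 of 5, 4 of 14 and 4 of 10 for node macrophages, dendritic cells and MHC class II. Without WT 1 they were 2, 7 and 4.

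Natural killer and cytotoxic genes were higher in part. Of 11 genes 6 were at least 2 times higher and 8 rose, against 5 without WT 3. Of the 9 with a *Cd79a*-low mean over the level limit 5 were at least 2 times higher. *Ccl5*, a chemokine of cytotoxic lymphocytes, lay between 9.39 and 12.17 (median 11.47) in the *Cd79a*-high arrays and at 6.83, 7.28 and 8.08 in the *Cd79a*-low arrays. *Tbx21* (0.12) and *Gzmk* (0.24) overlapped. Of 6 germinal centre genes 0 reached 2 times (median 0.24). *Bcl6*, the factor of that reaction, differed by 0.38 with overlapping groups, and *Gcsam*, a B cell gene of germinal centres, by 0.86 without overlap. Of 8 plasma cell genes 0 reached 2 times (median -0.07). Over all genes 4.34% did, and 0 in lists of 6 and 8 genes is near that share. *Jchain*, which joins IgM and IgA into polymers, differed by 0.97 but lay between 4.45 and 7.89 (median 5.22) in the *Cd79a*-high arrays, against at most 4.90 in the *Cd79a*-low arrays. Interferon-induced genes had a median of -0.18, with *Mx1*, whose *Cd79a*-low mean was under the level limit, at 1.07. Of 19 cell cycle genes 9 rose, where 15.6% of all genes did. Among them were *Mcm2* (slope 0.54, SE 0.081, adjusted p = 0.0015) and *Mcm6* (slope 0.54, SE 0.087, adjusted p = 0.00204), which belong to the replication helicase. Without WT 3 the count was 0 of 19, and without WT 1 it was 5. Ribosomal protein genes were higher by a small margin, 49 of 50 where 40.8% of all genes were higher, with a median of 0.38. In 11 of them every *Cd79a*-high array was above every *Cd79a*-low array, where 7.31% of all genes were so. Of the 50 genes 25 rose, where 15.6% of all genes did, against 1 without WT 3 and 13 without WT 1.

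Genes of fat and connective tissue were lower by small amounts. All 20 measured mature adipocyte genes were lower, where 59.2% of all genes were, with a median of -0.41, against -0.07 over all genes. In 4 of the 20 every *Cd79a*-high array was below every *Cd79a*-low array, where 5.42% of all genes were so. *Lpl*, the lipase that takes up fatty acids from lipoproteins, lay between 10.25 and 11.36 (median 11.02) in the *Cd79a*-high arrays and at 11.47, 11.61 and 11.61 in the *Cd79a*-low arrays. *Cidec*, a lipid droplet protein, lay between 11.61 and 12.39 (median 12.20) in the *Cd79a*-high arrays and at 12.45, 12.56 and 12.62 in the *Cd79a*-low arrays. *Pnpla2* (-0.41) and *Lipe* (-0.36), the lipases that release stored fat, were the others. *Fabp4*, among the brightest genes of the arrays at 13.29 to 13.55, differed by -0.12. Of 20 collagen and matrix genes all were lower (median -0.69) and 3 were at least 2 times lower, where 0.289% of all genes were. These 3 were *Lum* (-1.15), *Mfap5* (-1.10) and *Col1a2* (-1.08). *Lum*, a proteoglycan of collagen fibres, lay between 7.53 and 8.93 (median 8.48) in the *Cd79a*-high arrays and at 9.18, 9.53 and 9.74 in the *Cd79a*-low arrays. *Col1a1* differed by -0.84 and *Col3a1* by -0.85, and their groups overlapped. Of 12 blood endothelial genes 11 were lower, where 59.2% of all genes were. Among them were *Tek* (-0.70) and *Vwf* (-0.70), while *Pecam1* stood at 0.34. Of the 12 genes 0 were at least 2 times lower, and 0 had every *Cd79a*-high array below every *Cd79a*-low array. Among adipocyte progenitor genes *Pdgfra* (-0.65) and *Pi16* (-0.65) were lower, but *Dpp4* (2.01), *Cd55* (1.63) and *Icam1* (1.09), which lymphocytes also carry, were at least 2 times higher. In the smaller lists the median was -0.43 for smooth muscle and pericyte genes and 0.15 for mast cell genes, and *Cxcr2*, the one measured neutrophil gene, stood at 1.73.

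The largest lower differences without overlap were in *Gbp11* (-1.71), a guanylate-binding pseudogene, *Apod* (-1.34), a lipocalin of fibroblasts and nerve sheath, and *Mal* (-1.20), a membrane protein of myelin. *Apod* lay between 6.20 and 7.74 (median 7.22) in the *Cd79a*-high arrays and at 8.12, 8.41 and 8.41 in the *Cd79a*-low arrays. *Mal* lay between 5.93 and 6.95 (median 6.42) in the *Cd79a*-high arrays and at 7.44, 7.45 and 7.79 in the *Cd79a*-low arrays. *Ugt8a*, which makes the galactolipids of myelin, differed by -1.03, and *Mbp*, the myelin basic protein, by -0.34. In the Schwann cell list *Pmp22* (-0.72) and *Sox10* (-0.19) overlapped. *Hcar1*, the lactate receptor of adipocytes, differed by -0.95, *Slc7a10*, an amino acid transporter of white adipocytes, by -0.95, *Gpc3*, a glypican, by -0.97, and *Reep6* by -1.19. The slope on *Cd79a* within the *Cd79a*-high arrays was -0.21 (SE 0.26, adjusted p = 0.589) for *Apod*, -0.11 (SE 0.18, adjusted p = 0.689) for *Mal* and 0.09 (SE 0.35, adjusted p = 0.881) for *Gbp11*. Of the 20 genes with the largest lower differences without overlap 3 fell, which is near the share of 12% over all genes. These were *Reep6* (slope -0.97, adjusted p = 0.0201), *Ncam2* (slope -0.36, adjusted p = 0.0433) and *A530053G22Rik* (slope -0.47, adjusted p = 0.0403). Single omissions that ended the call numbered 2 of 9 for *Reep6* (WT 1 and WT 3), 6 for *Ncam2* and 5 for *A530053G22Rik*, WT 3 being one of them each time, with adjusted p of up to 0.407.

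Metabolic genes had a different pattern, with steep slopes inside the *Cd79a*-high arrays and small differences across the gap. Of 16 genes of fatty acid and triglyceride synthesis 14 fell, where 12% of all genes did, with a median slope of -0.87. Yet their median difference was -0.31 and 0 were at least 2 times lower, where 0.289% of all genes were. *Acly*, which makes cytosolic acetyl-CoA from citrate, lay between 10.67 and 12.94 (median 12.34) in the *Cd79a*-high arrays and at 11.97, 12.49 and 12.83 in the *Cd79a*-low arrays, a difference of -0.16 with a slope of -1.17 (SE 0.12, adjusted p = 0.000175). *Slc25a1*, the mitochondrial citrate carrier, had a slope of -1.05 (SE 0.097, adjusted p = 0.000105) and a difference of -0.32. *Mlxipl* (ChREBP), the glucose-sensing factor of lipogenesis, had a slope of -1.15 (SE 0.13, adjusted p = 0.000329) and *Fasn*, fatty acid synthase, one of -0.58 (SE 0.087, adjusted p = 0.00142, and 0.0793 without WT 3). Mitochondrial genes did likewise. Of 75 genes of the respiratory chain 59 fell (median slope -0.52), while the median difference was -0.21. *Mpc1*, the pyruvate carrier, had a slope of -0.95 (SE 0.095, adjusted p = 0.000152) and *Pdha1*, of pyruvate dehydrogenase, one of -0.88 (SE 0.090, adjusted p = 0.00017). Of 20 mature adipocyte genes 11 fell, with *Slc2a4*, the insulin-responsive glucose transporter, at a slope of -0.99 (SE 0.12, adjusted p = 0.000353) and *Adipoq* at -0.19 (SE 0.10, adjusted p = 0.211).

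WT 3 held the highest *Cd79a* and the lowest mean of fatty acid synthesis genes, 10.26, where the next *Cd79a*-high array stood at 11.12. Without WT 3 the falling genes were 5 of 16 for fatty acid synthesis (median slope -0.61), 2 of 75 for the respiratory chain (median slope -0.48) and 4 of 20 for mature adipocytes (median slope -0.24). Without WT 1 they were 13, 46 and 10. *Acly*, *Slc25a1*, *Mpc1* and *Pdha1* passed the test in either case. Thermogenic genes had a median difference of -0.05 and a median slope of -0.68, and 7 of 13 fell. *Ucp1*, the uncoupling protein of brown and beige adipocytes, lay between 8.70 and 12.61 (median 11.41) in the *Cd79a*-high arrays and at 8.44, 10.06 and 12.55 in the *Cd79a*-low arrays, a difference of 0.86 with a slope of -1.51 (SE 0.37, adjusted p = 0.0155, 0.0850 without WT 3 and 0.128 without WT 1). *Elovl3*, a fatty acid elongase of brown fat, had a slope of -2.35 (SE 0.41, adjusted p = 0.00304, and 0.0823 without WT 3). Without WT 3, 2 of the 13 fell, and without WT 1, 5 fell. Skeletal muscle genes had a median slope of -1.43 and 0 of 20 passed the test. *Myh4*, a fast myosin, had a slope of -3.40 (SE 1.96, adjusted p = 0.231). The part of muscle RNA in the slopes of respiratory chain genes was not tested.

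**Figure D4:**
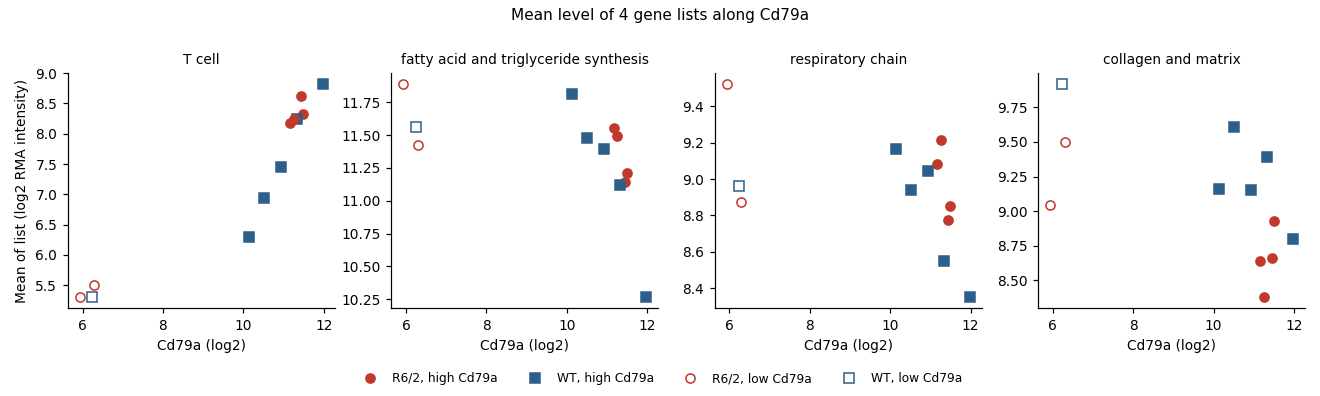
Mean level of 4 gene lists (vertical axes, log2 RMA intensity, each with its own range) against *Cd79a* (horizontal axes, log2) in the 12 arrays, with R6/2 as circles and WT as squares, filled for *Cd79a*-high and open for *Cd79a*-low arrays. T cell means run from 6.29 to 8.82 along *Cd79a* in the filled symbols, and the fatty acid synthesis mean is lowest in WT 3, at 10.26.

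The genes most closely tied to *Cd79a* within the *Cd79a*-high arrays included genes of B and T cells. *Cd52*, a surface glycoprotein of lymphocytes, had the smallest p, with a slope of 1.09 (SE 0.061, adjusted p = 4.55e-05), and lay between 8.59 and 10.60 (median 10.01) in these arrays, against 6.09, 6.57 and 6.88 in the *Cd79a*-low arrays. *Rasgrp1*, which activates Ras in T cells, had a slope of 1.37 (SE 0.080), *Il27ra*, a cytokine receptor chain, 1.38 (SE 0.082) and *Grap2*, an adaptor of T cell receptor signalling, 1.45 (SE 0.087). *Plcb2*, *Septin1*, *Cyfip2*, *Trbv13-2*, *C920009B18Rik* and *Aff3* completed the 10, with slopes between 1.08 and 1.61. On the falling side stood *Slc25a1*, *Acly*, *Mpc1* and *Pdha1* together with *Adig* (-0.84), a protein of fat cells, *Gbe1* (-1.05), the glycogen branching enzyme, *Plin2* (-0.74), a lipid droplet coat protein, *Pth1r* (-0.82), the parathyroid hormone receptor, *Parm1* (-1.05) and *Mocs2* (-0.63). Of 59 slopes of named genes 0 differed between R6/2 and WT mice by a test of the interaction (limma). Over all genes 0 did so after adjustment, with 506 at an unadjusted p under 0.05. *Cd79a* varied little among the 4 R6/2 arrays (SD 0.15, against 0.72 in the 5 WT arrays). The test could therefore hardly show a difference, and whether the slopes agree between genotypes cannot be told from it.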

How the data were processed

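The deposited table holds log2 RMA values of 41345 probe sets, which the authors made from the arrays with background correction, quantile normalization and probe summary, with Expression Console 1.1.2 named in the submitters' processing notes. No scanner intensities were used here. Of the probe sets 23521 had 1 gene symbol in the platform annotation, 1820 had several and 16004 had none, and names were taken only from the first kind. A probe set was kept where its mean in R6/2 or in WT mice exceeded a limit set per genotype, the median of unnamed probe sets (5.44 in R6/2 and 5.45 in WT mice), and the median was taken over probe sets of 1 gene, which left 14550 genes. Array medians lay between 5.75 and 5.87. Each mouse is 1 replicate, and p-values measure the spread between mice.

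Differences (*Cd79a*-high minus *Cd79a*-low) and slopes came from linear models with genotype as a term in limma 3.58.1 (R 4.3.3), with 6 residual degrees of freedom for the slopes. Motifs and figures used Python 3.11.15, pandas 2.3.3, numpy 2.4.6 and matplotlib 3.10.9. The scripts were tested on simulated data. Promoter sequences are those of RefSeq on GRCm38.p6.

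The members, the split and the 35 gene lists were chosen with earlier results of these data known. Of the lists 34 had measured genes, and the erythroid list had 0. Named genes were the 4 markers, the 20 largest differences in each direction without overlap, the 10 smallest p of rising and of falling slopes, and from each list at most 6 genes by size of difference and at most 3 by the p of the slope. Other list members named were chosen after their values were seen. Alternatives were the genotype term, the level filter, scaling, a muscle covariate, other predictors, other limits, the replicate number as a block and leaving out each array.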

Additional observations from a re-analysis of the deposited data

Results flagged for a closer look

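Among the 9 *Cd79a*-high arrays 6 of 94 values had 1 array far from the others by Dixon's test, which by chance marks about 1 in 20 groups. WT 1, the array with the lowest *Cd79a* of the 9, stood apart in 2 values. Its *H2-DMb2* was 7.32, where the nearest array had 8.29, and its mean over the MHC class II list was 8.01, where the nearest had 8.79. WT 3, the array with the highest *Cd79a*, stood apart in 4 values. Its *Slc25a1* was 10.64, where the nearest array had 11.68, its *Acly* was 10.67 (nearest 11.94), its *Gbe1* was 8.71 (nearest 9.80), and its mean over the genes of fatty acid and triglyceride synthesis was 10.26 (nearest 11.12). All 6 were the lowest values of the 9 arrays.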

How the results depend on the processing

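The count of genes at least 2 times higher was 1198 at a limit of 1.5 times and 224 at 4 times, and the count of lower genes 705 and 0. Without the genotype term 22 genes were at least 2 times lower. Over the arrays left out in turn the counts ran from 590 to 765 higher and from 33 to 152 lower genes, and the slopes past the test from 550 to 2159 rising and from 152 to 1692 falling genes. The lower count was 124 without R6/2 3 and 152 without WT 4, and the slopes were 550 and 152 without WT 3 and 1773 and 925 without WT 1. The difference in *Cd79a* between R6/2 and WT mice ran from 0.150 to 0.610. With the replicate number as a block, 1678 genes were at least 2 times higher and 1488 lower, a contrast that then rests on the pair with number 3 alone, and 0 genes rose and 0 fell on 2 residual degrees of freedom. Whether the numbers pair the arrays could not be told. Same-numbered arrays deviated with correlations from -0.785 to 0.776, which also carry the split by *Cd79a*. The value was 0.776 for number 4, where both arrays were *Cd79a*-low. It was -0.785 for number 3, where R6/2 3 was *Cd79a*-low and WT 3 *Cd79a*-high. For 1 of 6 numbers the R6/2 array correlated best with the WT array of its own number. With the replicate number as a block the *Glycam1* term for R6/2 minus WT was 1.58 (limma, adjusted p = 0.9999).

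List medians turned to the other sign in 13 cases. Over the arrays left out their lowest and highest values were -0.10 and 0.12 for the plasma cell list, -0.29 and 0.10 for macrophages, -0.39 and 0.27 for thermogenic genes and -1.38 and 0.67 for skeletal muscle. The cases were the plasma cell list (0.156 with the replicate block, 0.120 without R6/2 4), the macrophage list (0.193 with the block, 0.103 without WT 4), the interferon list (0.340 with the block), the thermogenic list (0.0403 with the muscle mean as covariate, 0.000111 without R6/2 2, 0.266 without R6/2 3, 0.0432 without WT 2, 0.0243 without WT 3) and the skeletal muscle list (0.158 with the muscle covariate, 0.195 without R6/2 2, 0.670 without R6/2 3). The cause was not tested. Of the other list medians 639 kept their value within the spread of the arrays and 28 moved. Differences of named genes kept theirs in 767 cases and moved in 32. Slopes of named genes kept their side of the threshold in 419 cases and lost it in 21, of which 20 were with the block and 1 was *Mpc1* without the genotype term (slope -0.69, adjusted p = 0.0538). The 3 *Cd79a*-low arrays and the leverage of WT 3 set the precision.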

Other observations

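Probe sets that name no gene were higher in the *Cd79a*-high arrays about as often as those with 1 symbol. Of 16004 probe sets with no symbol 529 (3.31%) were at least 2 times higher and 29 (0.181%) at least 2 times lower, against 708 (3.01%) and 62 (0.264%) of 23521 probe sets with 1 symbol. Of 1820 probe sets with several symbols 57 (3.13%) were higher and 18 (0.989%) lower. No level filter was used for these counts.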
